A study of Rattus norvegicus with 23 samples.

Results

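The lysosomal cathepsins examined here are the products of 10 genes, Ctsa, Ctsb, Ctsc, Ctsd, Ctsf, Ctsh, Ctsk, Ctsl, Ctss and Ctsz, chosen by their exact gene symbol among the 30452 genes of the rat count table. All 10 passed the filter for sufficient counts, as did 14777 genes in all. Their mRNA was measured by poly(A) RNA sequencing in 2 cell lines of normal rat kidney, NRK-52E, labelled epithelial, and NRK-49F, a fibroblast line. The cells were kept without fetal calf serum for 24 h and were then incubated for 48 h either at pH 7.4 or in medium brought to pH 6.0 with HCl. There were 6 samples of NRK-52E cells at each pH, 6 of NRK-49F cells at pH 7.4 and 5 of NRK-49F cells at pH 6.0. Within each line the labels name 2 sample groups, 1 and 3 for NRK-52E and 4 and 6 for NRK-49F, each holding both pH values, without stating what a sample group is. Each sample group held 3 samples at each pH, except group 4, which held 2 at pH 6.0. Tests within a sample group thus rest on fewer samples. Both lines are cultures without the other cell types of the kidney, and the labels do not state whether samples came from separate cultures, so p-values measure the spread between these samples only.

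Cathepsins are the main protein-degrading enzymes of lysosomes, the acidic compartments in which cells break down internalised and worn-out material. They are made as inactive precursors in the endoplasmic reticulum, tagged with mannose 6-phosphate in the Golgi, carried to lysosomes by mannose 6-phosphate receptors and cut there into active enzymes at acidic pH. Kidney tubule cells use them to degrade filtered proteins taken up from the urine, and fibroblasts use some of them to turn over collagen.

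Total counts per sample ranged from 16412564 to 34250535. Levels are given as FPM, fragment counts brought to one common library size by TMM, a trimmed-mean scaling, which are comparable between samples but not between genes of different length. A gene was called regulated at an adjusted p under 0.05 in the quasi-likelihood test of edgeR, adjusted over all tested genes by the Benjamini-Hochberg method and fitted to all 23 samples with 4 conditions. All comparisons below come from that fit and share samples with each other. The epithelial label of NRK-52E was not borne out by the markers: Krt8 was lower there at pH 7.4 (mean 499.2 FPM) than in NRK-49F (839.1 FPM), and the other 6 listed epithelial markers had at most 12 counts in any NRK-52E sample. Of 8 listed fibroblast markers, 7 were tested. At pH 7.4, 6 of them were lower in NRK-52E than in NRK-49F, beside 33.9% of all tested genes. These included Col1a1 (58.1 against 5877 FPM), Pdgfra (1.83 against 306.4 FPM) and Pdgfrb (41.45 against 84.64 FPM). The remaining tested marker, Col3a1, was higher in NRK-52E (6149 against 1212 FPM), and Thy1 had 0 counts in both lines at pH 7.4. In bulk RNA, fewer cells of a kind and less RNA per cell cannot be told apart.

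Cathepsin transcripts made up a larger part of the library in NRK-49F than in NRK-52E cells. The 10 genes together took 0.278 to 0.335% of all counts in the NRK-52E samples at pH 7.4 and 0.292 to 0.327% at pH 6.0. In NRK-49F they took 0.678 to 0.793% at pH 7.4 and 0.921 to 1.03% at pH 6.0. Thus the ranges of both pH values overlapped in NRK-52E and were separate in NRK-49F.

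**Figure D1:**
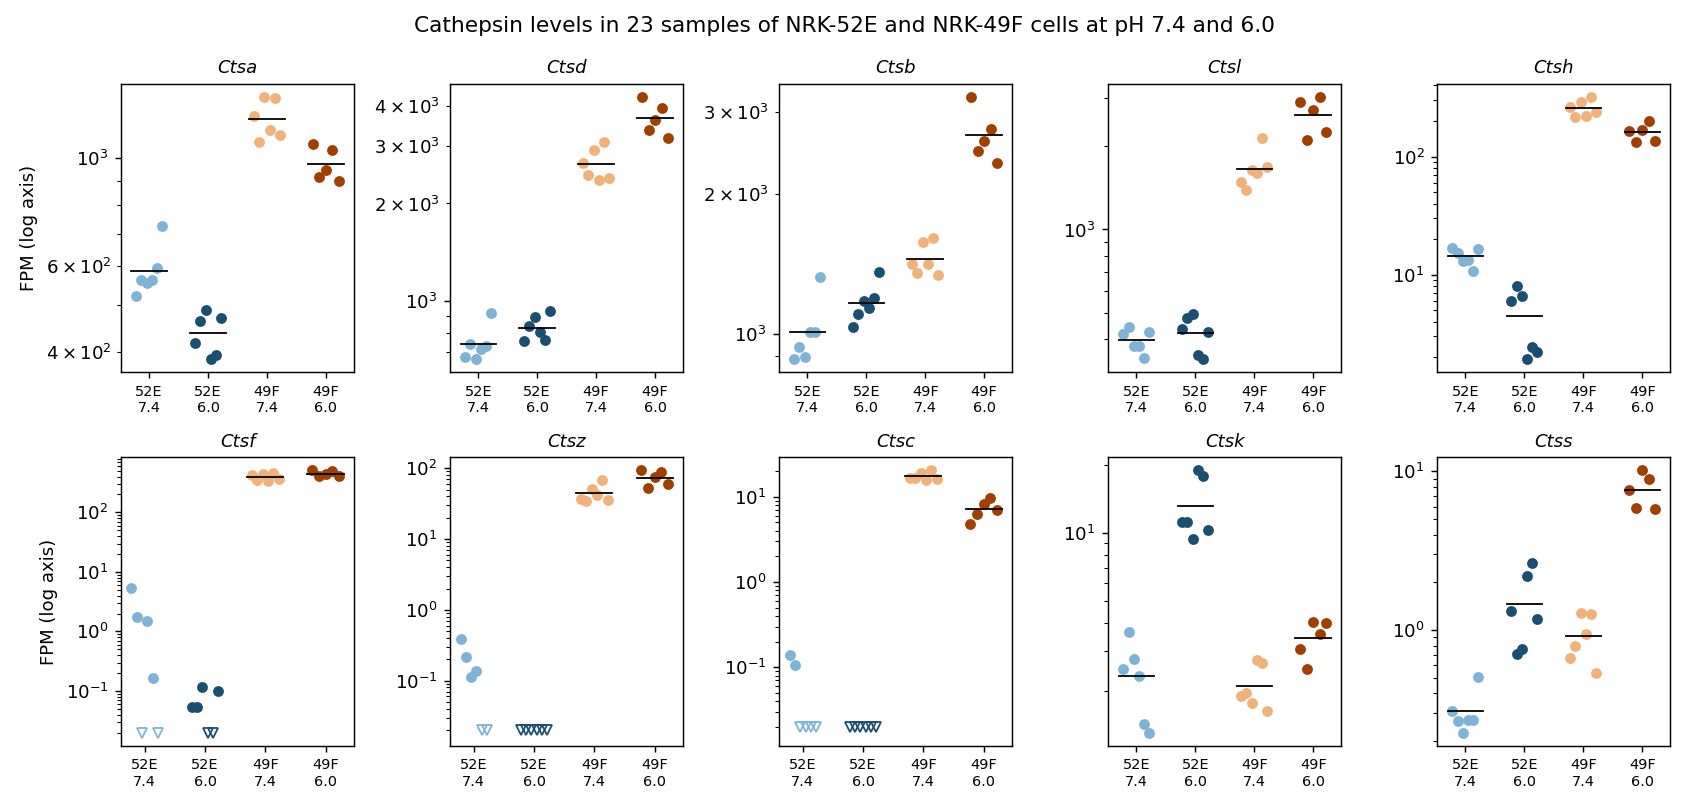
Level of each cathepsin in each of the 23 samples, in FPM on a log axis, by cell line (52E, 49F) and pH. Filled circles are samples, black lines are means where no sample is at 0, and open triangles mark samples with 0 counts, drawn below the axis range of the others. Ctsk at pH 6.0 in NRK-52E (9.43 to 18.96 FPM) lies above all other groups, and Ctsf, Ctsz and Ctsc in NRK-52E lie far below NRK-49F.

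At pH 7.4, 9 of the 10 cathepsins were lower in NRK-52E than in NRK-49F cells and the last, Ctsk, was not called, whereas 68.8% of all tested genes were called and 33.9% were called lower. The ranges of both lines did not overlap for these 9 genes, as was the case for 50.7% of all tested genes. The median log2 difference (NRK-52E against NRK-49F) was -1.95 over the 10 members and 0.02 over all tested genes. Ctsc, Ctsf and Ctsz, which were high in NRK-49F alone, are part of these counts, and without them 6 of 7 were lower, with a median of -1.57. At pH 6.0, all 10 were called, 9 lower and 1, Ctsk, higher in NRK-52E, beside 75.5% of all tested genes, 36.6% higher and 38.9% lower, and no member overlapped between the lines, beside 57.3% of all. The median log2 difference at pH 6.0 was -2.51 over the members, also with Ctsc and Ctsz set to the bounds given below, and -0.02 over all genes. Without Ctsc, Ctsf and Ctsz it was -2.14, with 7 of 7 called.

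The acid response was tested within each line. In NRK-49F cells, 9 of the 10 cathepsins were called, 6 higher and 3 lower at pH 6.0, where 28.9% of all tested genes were called, 14.5% higher and 14.4% lower. For 6 members the pH ranges did not overlap, beside 20.6% of all genes. The median log2 fold change of the 10 was 0.56, against 0.00 over all genes. In NRK-52E cells, 7 were called, 2 higher and 5 lower, where 61.2% of all genes were called, 24.7% higher and 36.6% lower, and 4 did not overlap, beside 38.6% of all genes. Of the 5 lower ones, Ctsc, Ctsf and Ctsz rest on levels of few counts near the estimated signal from NRK-49F cells, as described below. Without these 3, 4 of 7 were called, 2 in each direction. The median over the members in NRK-52E was -0.17 with all 10 and 0.17 without the 3, beside -0.12 over all genes.

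With NRK-52E filtered, scaled and fitted alone the median of all genes was -0.00 in place of -0.12. When the difference between the responses was tested, 6 of 10 members differed (NRK-52E minus NRK-49F), 1 of them higher and 5 lower, where 41.4% of all tested genes differed, 16.8% higher and 24.7% lower. These were Ctsk (1.79), Ctsb (-0.68), Ctsl (-0.56), Ctsh (-0.97), Ctsf and Ctsz. Ctsf and Ctsz were high in NRK-49F alone and rest on the same low NRK-52E levels, and without them and Ctsc, 4 of 7 members differed, 1 of them higher.

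**Figure D2:**
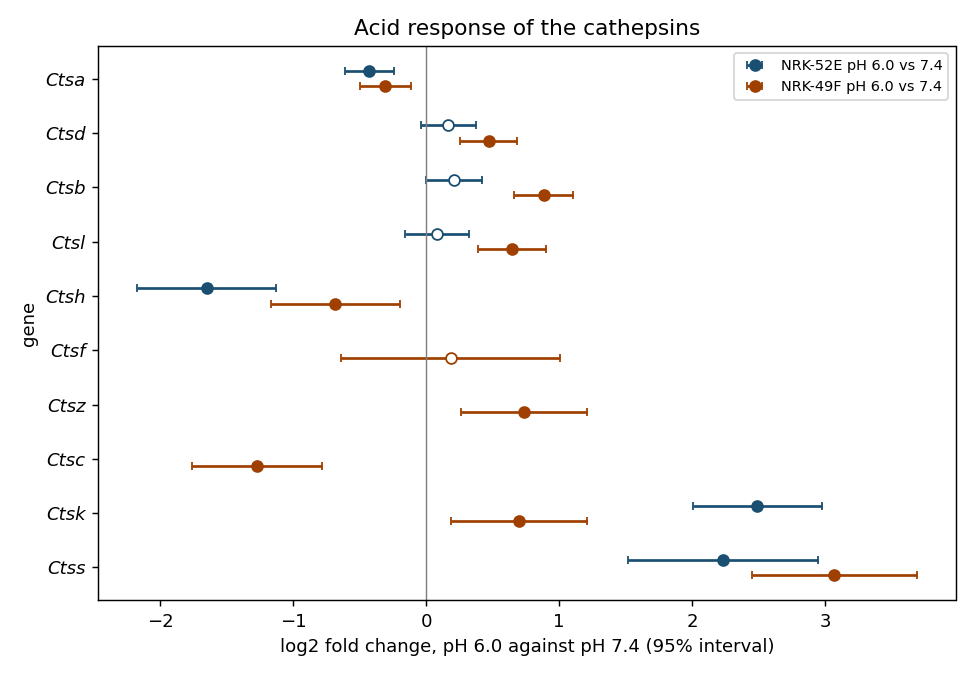
Log2 fold change at pH 6.0 against pH 7.4 with its 95% interval for each cathepsin, in NRK-52E (blue) and NRK-49F cells (brown). Filled circles passed the threshold and open ones did not. Ctsf, Ctsz and Ctsc are not drawn for NRK-52E, where their levels rest on few counts. Ctss was raised in both lines, by 2.23 and 3.07.

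Ctsa (ENSRNOG00000015857, chromosome 3) encodes the serine carboxypeptidase that also protects lysosomal beta-galactosidase and neuraminidase. It was the abundant member whose level fell in both lines. In NRK-52E the lowest, median and highest samples had 521.2, 563.1 and 726.5 FPM at pH 7.4 and 386.9, 440.1 and 488.6 FPM at pH 6.0. In NRK-49F they had 1079, 1183 and 1338 FPM at pH 7.4, and the 5 samples at pH 6.0 had 1070, 916.5, 947.0, 1040 and 900.1 FPM. In neither line did the pH values overlap, and the 4 conditions ranked from NRK-49F at pH 7.4 down to NRK-52E at pH 6.0 without overlap between neighbours, though by a narrow margin in NRK-49F. The change on the log2 scale was -0.43 in NRK-52E (standard error, SE, 0.0893, adjusted p = 0.000225) and -0.31 in NRK-49F (SE 0.0938, adjusted p = 0.0163, edgeR). The difference between the responses was -0.12 (95% interval -0.39 to 0.14, adjusted p = 0.481). Within sample group 1 the change in NRK-52E was -0.18 and did not pass the threshold (adjusted p = 0.0664, the same edgeR test), whereas in group 3 it was -0.51. Within groups 4 and 6 of NRK-49F it was -0.29 and -0.33, neither past the threshold (adjusted p = 0.382 and 0.0986, edgeR), with only 2 acidic samples in group 4.

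The partners of this enzyme in the lysosomal complex moved differently. Glb1, which encodes beta-galactosidase, went from 169.8 ± 26.2 to 83.0 ± 9.93 FPM in NRK-52E (SD over 6 samples each), or -1.03 on the log2 scale (adjusted p = 1.82e-09 in edgeR). In NRK-49F its log2 fold change was -0.25 (adjusted p = 0.0589 in edgeR). Neu1, the neuraminidase, had 41.5 and 40.9 FPM in NRK-52E and 35.03 and 48.9 FPM in NRK-49F at pH 7.4 and 6.0, and passed the threshold in neither line.

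Ctsd (ENSRNOG00000020206, chromosome 1), the main aspartic protease of lysosomes, rose in NRK-49F. In that line the lowest, median and highest samples at pH 7.4 had 2367, 2557 and 3093 FPM, and the samples at pH 6.0 had 4259, 3354, 3602, 3932 and 3185 FPM. No sample at pH 6.0 was as low as the highest at pH 7.4. On the log2 scale the rise was 0.47 (SE 0.105, adjusted p = 0.00144, edgeR), with 0.50 in sample group 4 and 0.44 in group 6, each short of the threshold alone (adjusted p = 0.206 and 0.0907, edgeR). In NRK-52E the samples had 665.1, 722.2 and 920.1 FPM at pH 7.4 and 755.3, 820.1 and 932.8 FPM at pH 6.0, ranges that overlap. The log2 fold change there was 0.17 (95% interval -0.04 to 0.37, adjusted p = 0.156, edgeR), or 0.29 above the median of all genes. Replicate A035 was the highest at pH 7.4, and without it the value was 0.24 and passed the threshold (adjusted p = 0.0346, edgeR). The value also passed with DESeq2 (adjusted p = 0.046), with the line fitted alone (0.26, adjusted p = 0.025) and in sample group 1 alone (0.34, adjusted p = 0.00372, edgeR), but not in group 3 alone (0.16, adjusted p = 0.362, edgeR). The responses of the lines differed by -0.30 (adjusted p = 0.0981, difference test in edgeR).

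Ctsb (ENSRNOG00000010331) and Ctsl (ENSRNOG00000018566) encode the widely expressed cysteine proteases cathepsin B, which cuts both within proteins and at their carboxy end, and cathepsin L, an endopeptidase. Ctsb in NRK-49F had 1339, 1419 and 1609 FPM in the lowest, median and highest samples at pH 7.4, and the samples at pH 6.0 had 3242, 2483, 2599, 2761 and 2334 FPM. Every acidic sample was above every control sample. Ctsb thus went up 1.85-fold (log2 fold change 0.88, SE 0.107, adjusted p = 1.06e-06, edgeR), by 0.98 on the log2 scale within group 4 and by 0.81 within group 6. In NRK-52E it had 885.7, 976.0 and 1327 FPM at pH 7.4 and 1036, 1161 and 1361 FPM at pH 6.0, with overlap. The change of 0.21 there (95% interval -0.00 to 0.42, adjusted p = 0.0811, edgeR) passed the threshold without replicate A035 (0.30, adjusted p = 0.00683), with DESeq2 (0.25, adjusted p = 0.0214) and with the line fitted alone (0.30, adjusted p = 0.0232). The rise in NRK-49F was larger than that in NRK-52E, by 0.68 on the log2 scale (SE 0.149, adjusted p = 0.000795, difference test in edgeR).

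Ctsl in NRK-49F had 1392, 1624 and 2140 FPM in the lowest, median and highest samples at pH 7.4, and 2882, 2101, 2712, 3023 and 2251 FPM at pH 6.0. One acidic sample, A043, lay below the highest control sample, A052. This was a log2 change of 0.65 (SE 0.123, adjusted p = 0.000315, edgeR), 0.72 in group 4 and 0.55 in group 6, neither past the threshold alone (adjusted p = 0.0851 and 0.0559, edgeR). In NRK-52E, Ctsl had 342.2, 399.1 and 442.5 FPM at pH 7.4 and 340.1, 429.9 and 493.9 FPM at pH 6.0, and the samples of both pH values were interspersed. The change of 0.08 (95% interval -0.16 to 0.32, adjusted p = 0.570, edgeR) was 0.26 within group 1 (adjusted p = 0.0158) and 0.05 within group 3 (adjusted p = 0.78, edgeR). The responses differed by -0.56 (adjusted p = 0.0103, difference test in edgeR), a call that neither pair of sample groups gave alone, with -0.54 in groups 1 and 4 (adjusted p = 0.0804) and -0.59 in groups 3 and 6 (adjusted p = 0.0504, edgeR). Rodents carry a cluster of Ctsl-like genes on chromosome 17 that are known from the placenta, and 9 of these listed in the table had 0 counts in all 23 samples.

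Ctss (ENSRNOG00000021157, chromosome 2) and Ctsk (ENSRNOG00000021155, chromosome 2) were the members raised in both lines by the NRK-52E and NRK-49F tests. Cathepsin S works also at neutral pH and is best known from antigen-presenting cells, where it cuts the invariant chain, and cathepsin K is the collagen-degrading protease of osteoclasts. The genes are neighbours with the same orientation in RefSeq's GRCr8 annotation, with 1 annotated gene between them. Both were measured from low counts, and without a stated strand setting, reads of genes overlapping them cannot be separated.

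Ctss had 0.226, 0.273 and 0.509 FPM in the lowest, median and highest NRK-52E samples at pH 7.4, which are 5 to 11 counts, and 0.7101, 1.26 and 2.65 FPM at pH 6.0, which are 13 to 48 counts. In NRK-49F it had 0.539, 0.874 and 1.29 FPM at pH 7.4, and the acidic samples had 7.64, 5.92, 10.1, 8.95 and 5.78 FPM, from 97 to 273 counts. All acidic samples were above all control samples of their line, and the order of the means was NRK-52E at pH 7.4, NRK-49F at pH 7.4, NRK-52E at pH 6.0 and NRK-49F at pH 6.0, where the middle pair overlapped. The rise was 4.69-fold in NRK-52E (log2 fold change 2.23, SE 0.346, adjusted p = 6.10e-06) and 8.38-fold in NRK-49F (3.07, SE 0.299, adjusted p = 4.21e-08, edgeR). It was 1.82 and 2.59 within sample groups 1 and 3, and 2.93 and 3.12 within groups 4 and 6, past the threshold in each. The responses differed by -0.84 (95% interval -1.82 to 0.14, adjusted p = 0.165, difference test in edgeR).

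Ctsk had 1.30, 2.41 and 3.66 FPM in the lowest, median and highest NRK-52E samples at pH 7.4 (23 to 89 counts) and 9.43, 11.2 and 18.96 FPM at pH 6.0 (206 to 362 counts). In NRK-49F it had 1.62, 1.92 and 2.73 FPM at pH 7.4, and the acidic samples had 3.06, 2.50, 4.04, 3.57 and 4.00 FPM. The acidic NRK-52E samples stood above all others, whereas the control samples of both lines overlapped and did not differ beyond their spread (log2 difference 0.14, 95% interval -0.36 to 0.64, adjusted p = 0.623, edgeR). Ctsk went up 5.61-fold in NRK-52E (log2 fold change 2.49, SE 0.235, adjusted p = 3.13e-09) and 1.62-fold in NRK-49F (0.70, SE 0.247, adjusted p = 0.0358, edgeR). The rise in NRK-52E was larger by 1.79 on the log2 scale (SE 0.339, adjusted p = 0.000169, difference test in edgeR). At pH 6.0 Ctsk was thus the cathepsin that was higher in NRK-52E than in NRK-49F, 3.81-fold (adjusted p = 1.32e-07, edgeR). The call in NRK-49F did not hold within either sample group (adjusted p = 0.277 and 0.107, edgeR), nor without any 1 of the replicates A039, A040, A041, A053, A054, A055 and A056, with log2 fold changes from 0.63 to 0.79 over all single omissions.

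Markers of cells that use these proteases were followed beside them. The osteoclast markers Acp5, Calcr, Oscar, Dcstamp and Ocstamp summed to at most 0.599 FPM in any sample, and 0 of 5 passed the filter for sufficient counts. Of 9 leukocyte markers, 4 were tested, of which 3 rose in NRK-52E and 1 in NRK-49F, beside 24.7% and 14.5% of all tested genes. Ptprc had at most 6 counts in any sample, Itgam at most 2, and Adgre1 and Tyrobp had 0 in all 23 samples. The summed level of that list was 85.2 to 109.2 FPM and 65.9 to 177.3 FPM in NRK-52E, and 122.8 to 138.7 FPM and 294.7 to 342.4 FPM in NRK-49F, at pH 7.4 and 6.0. Most of the sum in NRK-52E came from Cd14, a marker of the list that passed the threshold in neither line. Its means were 95.5 and 109.6 FPM in NRK-52E and 100.5 and 81.8 FPM in NRK-49F at pH 7.4 and 6.0. Cd68, which encodes a lysosomal membrane protein, rose in NRK-49F, with mean and SD going from 29.9 ± 4.21 to 229.5 ± 13.8 FPM over 6 and 5 samples (log2 fold change 2.94) and from 1.90 to 4.15 FPM in NRK-52E (1.10), and Csf1r and Lyz2 rose in NRK-52E to 2.09 and 4.02 FPM. Among the other genes tied to collagen breakdown with Ctsk, Mmp9 rose by 0.69 in NRK-49F (adjusted p = 0.0374), and Atp6v0d2 went from 0.836 to 0.288 FPM in NRK-52E (-1.47, adjusted p = 0.0108, edgeR).

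Promoter sequences were read from RefSeq (GRCr8) for the 250 bases before the annotated start, which matched 9 of the 10 members by symbol, all but Ctsb. They were searched on both strands for CACGTG, the E-box core read by TFEB and its relatives, which drive many lysosomal genes, and for a tandem GAAA, that is GAAA, any 2 bases and GAAA again, the core of the element read by interferon-regulatory factors. CACGTG was found in Ctsd and Ctsf among the members and in 5.59% of all 33469 promoters of that length. In Ctsd it occurred 157 to 152 and again 10 to 5 bases before the start, and in Ctsf 149 to 144 bases before it. The tandem GAAA occurred in Ctss, 36 to 27 bases before the start, and in 3.41% of all promoters. TCACGTG, which overlaps CACGTG, was found in Ctsd and in 2.79% of all promoters, and the full palindromic CLEAR element around it in no member and in 0.203% of all. TGANTCA (6.34%) was found in none and TATAAA (12.9%) in Ctss alone, on the opposite strand and 238 to 233 bases before the start. The promoters of Ctsd and Ctsf are shown as those with the E-box core, and those of Ctss and Ctsk as the neighbouring genes that rose in both lines, with matches to CACGTG and to the tandem GAAA in capitals, 5′ to 3′ along the gene.
Ctsd, chr1:206968822-206969071, minus strand: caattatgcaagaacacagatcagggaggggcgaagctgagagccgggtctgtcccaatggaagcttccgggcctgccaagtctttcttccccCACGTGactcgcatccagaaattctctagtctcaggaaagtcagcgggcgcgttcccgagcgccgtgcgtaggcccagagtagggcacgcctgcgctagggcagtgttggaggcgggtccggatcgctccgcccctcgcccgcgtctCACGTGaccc
Ctsf, chr1:211581919-211582168, plus strand: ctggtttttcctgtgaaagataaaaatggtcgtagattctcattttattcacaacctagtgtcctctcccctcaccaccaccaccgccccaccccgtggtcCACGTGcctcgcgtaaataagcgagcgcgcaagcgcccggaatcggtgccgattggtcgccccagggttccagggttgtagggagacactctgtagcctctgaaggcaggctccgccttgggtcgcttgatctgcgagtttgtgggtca
Ctss, chr2:185775146-185775395, plus strand: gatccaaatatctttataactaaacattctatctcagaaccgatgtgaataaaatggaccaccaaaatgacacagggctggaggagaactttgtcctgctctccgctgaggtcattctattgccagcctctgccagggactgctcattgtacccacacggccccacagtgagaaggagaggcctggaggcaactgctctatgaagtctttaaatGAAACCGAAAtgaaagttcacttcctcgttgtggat
Ctsk, chr2:185747298-185747547, plus strand: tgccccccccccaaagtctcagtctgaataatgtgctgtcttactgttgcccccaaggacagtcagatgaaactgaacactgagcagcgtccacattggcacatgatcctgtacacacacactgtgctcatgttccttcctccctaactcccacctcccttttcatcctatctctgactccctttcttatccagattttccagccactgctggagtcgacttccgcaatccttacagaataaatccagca
A match describes these letters only, and neither binding nor use of the site was measured.

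Ctsh (ENSRNOG00000014064, chromosome 8), an aminopeptidase, fell in both lines and most in NRK-52E. In that line the lowest, median and highest samples had 10.7, 14.2 and 16.9 FPM at pH 7.4 (196 to 605 counts) and 1.94, 4.19 and 7.98 FPM at pH 6.0 (37 to 226 counts). In NRK-49F they had 216.9, 249.8 and 320.4 FPM at pH 7.4, and the acidic samples had 164.7, 133.8, 168.6, 200.7 and 135.0 FPM. The pH values did not overlap in either line, and the lines were far apart at both. Ctsh decreased 3.14-fold in NRK-52E (log2 fold change -1.65, SE 0.252, adjusted p = 5.06e-06) and 1.60-fold in NRK-49F (-0.68, SE 0.235, adjusted p = 0.0322, edgeR). The call in NRK-49F was lost without any 1 of A039, A041, A042, A043, A052, A054 and A056 (-0.77 to -0.61 over all single omissions) and within group 6 (-0.63, adjusted p = 0.0518, edgeR). The fall was larger in NRK-52E by 0.97 on the log2 scale (SE 0.341, adjusted p = 0.0258, difference test in edgeR), but not past the threshold without A055 (-0.81, adjusted p = 0.0538) or within groups 1 and 4 (-0.36, adjusted p = 0.285), while in groups 3 and 6 it was -2.002 (adjusted p = 0.000208, edgeR).

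The sample groups of NRK-52E responded unequally in 2 of the 8 members for which the test could be made, beside 10.6% of all tested genes. Ctsh at pH 6.0 had 5.95, 7.98 and 6.58 FPM in the samples of group 1 and 1.94, 2.43 and 2.22 FPM in those of group 3, without overlap, whereas at pH 7.4 the groups overlapped (13.1 to 16.9 and 10.7 to 16.6 FPM). The log2 fold change was -1.07 in group 1 and -2.54 in group 3, a difference of -1.48 (SE 0.298, adjusted p = 0.00315, difference test in edgeR). Ctsk at pH 6.0 had 11.2, 11.3 and 9.43 FPM in group 1 and 18.96, 17.9 and 10.3 FPM in group 3, where A038 lay among the samples of group 1. Its log2 fold change was 1.94 in group 1 and 3.28 in group 3, a difference of 1.35 (SE 0.351, adjusted p = 0.0167, edgeR). For Ctss the difference was 0.77 (adjusted p = 0.515, edgeR). In NRK-49F no member and 0 of all tested genes differed between groups 6 and 4 in edgeR's test, where 596 genes had an unadjusted p under 0.05. This comparison was chosen after the data were seen.

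**Figure D3:**
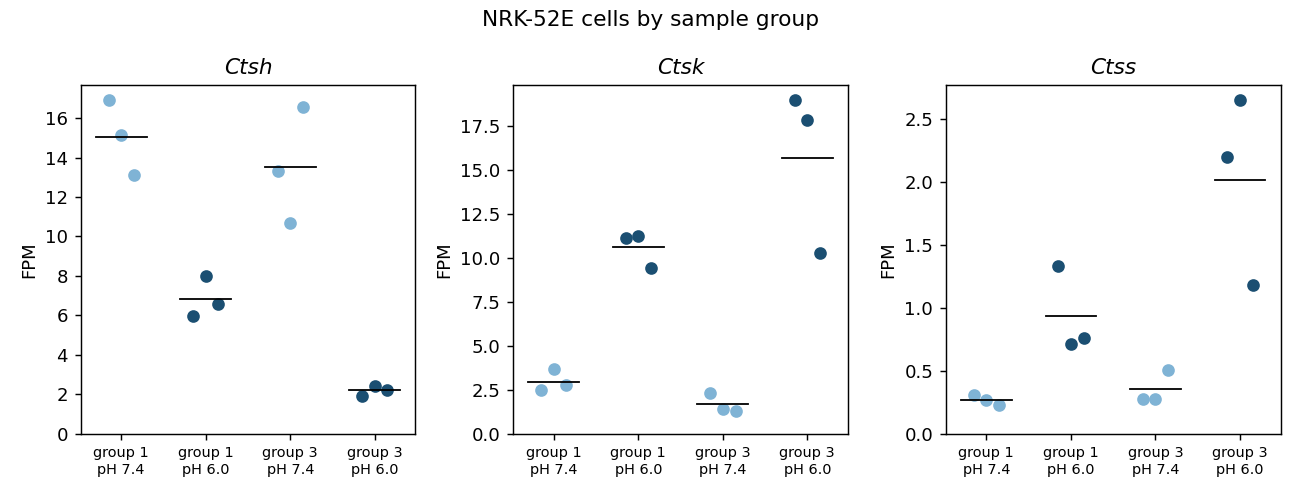
Level of Ctsh, Ctsk and Ctss in FPM on linear axes in the NRK-52E samples of sample groups 1 and 3 at each pH. Circles are samples and black lines their means, with 3 samples each. Ctsh at pH 6.0 is lower in every sample of group 3 (1.94 to 2.43 FPM) than of group 1 (5.95 to 7.98 FPM).

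Ctsf (ENSRNOG00000019708, chromosome 1), Ctsz (ENSRNOG00000050697) and Ctsc (ENSRNOG00000016496) were barely detected in NRK-52E cells. They encode the cysteine protease cathepsin F, the carboxypeptidase cathepsin X and the dipeptidyl peptidase that activates serine proteases of immune cells. Ctsf had 189, 33, 0, 33, 3 and 0 counts in the NRK-52E samples A021, A022, A023, A033, A034 and A035 at pH 7.4, or 5.29, 1.78, 0, 1.50, 0.164 and 0 FPM. At pH 6.0 it had 1, 1, 4, 0, 0 and 2 counts. Most of the counts at pH 7.4 thus lay in A021, A022 and A033.

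In the same order of samples, Ctsz had 14, 4, 3, 3, 0 and 0 counts at pH 7.4 and Ctsc 5, 2, 0, 0, 0 and 0, and both had 0 counts in all 6 samples at pH 6.0. In NRK-49F all 3 genes were clearly present. Ctsf had 336.4, 393.0 and 458.0 FPM in the lowest, median and highest samples at pH 7.4 and 505.8, 403.0, 441.0, 493.4 and 405.1 FPM at pH 6.0, with overlap (log2 fold change 0.19, 95% interval -0.64 to 1.01, adjusted p = 0.772, edgeR).

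Ctsz rose in NRK-49F, from 34.2, 38.9 and 68.2 FPM in the lowest, median and highest samples to 93.3, 52.1, 75.7, 87.4 and 60.6 FPM, where only the control sample A052 reached into the acidic range. The rise of 0.74 on the log2 scale (SE 0.226, adjusted p = 0.0197, edgeR) fell short of the threshold without A042 or without A055 (adjusted p up to 0.0553, log2 fold changes from 0.64 to 0.90 over all single omissions) and within either sample group (0.85 and 0.61, adjusted p = 0.113 and 0.130, edgeR). Ctsc fell in NRK-49F, from 15.8, 16.6 and 20.5 FPM to 4.79, 6.28, 8.35, 9.71 and 6.94 FPM, without overlap. This is a 2.41-fold decrease (log2 fold change -1.27, SE 0.235, adjusted p = 0.000425, edgeR), past the threshold within group 4 (-1.66) and group 6 (-1.08).

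The low NRK-52E levels of these genes were compared with the level that signal from NRK-49F could supply. For this purpose, 55 genes with at least 50 FPM in every NRK-49F sample and a median in NRK-52E under 0.5% of the NRK-49F mean were taken, the cathepsins left out. Their summed level in a NRK-52E sample, as a share of that in NRK-49F at the same pH, was 1.55% in A021, 0.739% in A022, 0.517% in A033, 0.341% in A023, 0.252% in A034 and 0.248% in A035. At pH 6.0 it was 0.0439 to 0.0910%. The share is an estimate only. Low expression of a listed gene in NRK-52E would raise it, and the choice of genes by a low NRK-52E median could lower it. How it came about, as mixed cells, RNA or reads, was not tested.

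At these shares NRK-49F signal would supply 6.14 FPM of Ctsf in A021, where 5.29 FPM were measured, 2.92 FPM in A022 (1.78 measured) and 2.04 FPM in A033 (1.50 measured). By this summed share, measured Ctsf, Ctsz and Ctsc stayed under the supplied level in each of the 12 NRK-52E samples. A sample with 0 counts lies under any supplied level. The comparison could therefore not fail for Ctsz and Ctsc at pH 6.0, nor in the other samples with 0 counts. In A021, Ctsf was at 1.34% of the NRK-49F mean (exact Poisson interval 1.16 to 1.54%), Ctsz at 0.883% (0.483 to 1.48%) and Ctsc at 0.800% (0.260 to 1.87%), intervals that cover counting error only. With the shares set by the median of the ratios per gene in place of the sum, the supplied level of Ctsf was 5.77 FPM in A021, 2.11 FPM in A022 and 1.50 FPM in A033. By that lower estimate, Ctsz in A023 (0.113 FPM from 3 counts, 0.0181 FPM supplied) and Ctsc in A022 (0.108 FPM from 2 counts, 0.0935 FPM supplied) exceeded the supplied level.

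Ctsf, Ctsz and Ctsc are the 3 members whose calls in NRK-52E rest on such levels. The test called all of them lower at pH 6.0 (adjusted p = 0.000359, 0.00394 and 0.0223, edgeR), and the summed share of NRK-49F signal was also lower in every acidic NRK-52E sample than in every control sample. By the median of ratios the shares overlapped, with 0.0389 to 1.46% at pH 7.4 and 0.0148 to 0.0569% at pH 6.0. Subtracting the summed share leaves these 3 at 0 by construction, so that setting gives no value for them. It called 4 members in NRK-52E and 3 in the test of the difference. With A021 left out, Ctsf was still called (adjusted p = 0.00267) and Ctsc was not (adjusted p = 0.115, edgeR). No fold is given for Ctsz and Ctsc within NRK-52E, since both means were at or under the level of 3 counts, the limit of detection set here, which is 0.147 FPM on average at pH 6.0. Against that limit, Ctsz at pH 6.0 was at least 503-fold and Ctsc at least 49.1-fold lower in NRK-52E than in NRK-49F.

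**Figure D4:**
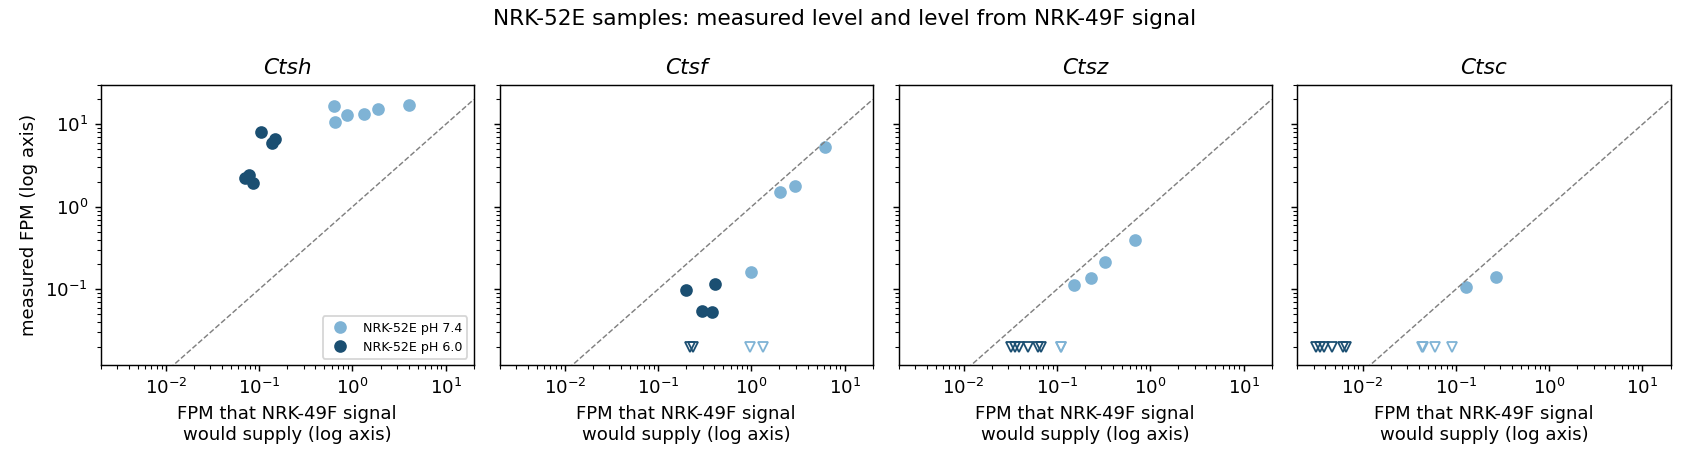
Measured level of Ctsh, Ctsf, Ctsz and Ctsc in the 12 NRK-52E samples against the level that signal of NRK-49F would supply by the summed share, both in FPM on log axes. Circles are samples, open triangles samples with 0 counts, and the dashed line marks equality. The measured level of Ctsh is above the supplied level in all samples, and those of Ctsf, Ctsz and Ctsc are under it. Samples with 0 counts are under it whatever its value. A level of 0 has no place on a log axis. The drawn height of a triangle is therefore not a measured level, and triangles can appear above the line.

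The other 7 cathepsins exceeded the supplied level in every NRK-52E sample. For Ctsh it amounted to 3.85 to 23.6% of the measured level at pH 7.4 and 1.33 to 4.42% at pH 6.0, and with the signal subtracted its fall in NRK-52E was -1.51 (adjusted p = 1.38e-05, edgeR) and the difference between the lines -0.82 (adjusted p = 0.055, edgeR). For Ctsk it was at most 1.31% and for Ctss at most 4.63% in any NRK-52E sample. For Ctsa, Ctsb, Ctsd and Ctsl it was at most 6.15%. In the other direction, signal of NRK-52E in NRK-49F, from 23 genes, was 4.20% in A051 and at most 0.946% in the other samples, which would supply at most 3.58% of Ctsk and 3.00% of Ctsb there.

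Genes that act with the cathepsins were followed by lists that were written with earlier results of these data known. In all lists the counts stand beside the 61.2% of all tested genes that were called in NRK-52E and the 28.9% in NRK-49F. Of 10 genes for sorting and processing, 3 rose and 2 fell in NRK-52E and 2 rose and 2 fell in NRK-49F. Gnptg, a subunit of the enzyme that builds the mannose 6-phosphate tag, fell from 35.6 ± 2.81 to 5.34 ± 1.17 FPM in NRK-52E (SD, n = 6 each, log2 fold change -2.73, adjusted p = 1.10e-13) and in NRK-49F from 57.3 ± 8.52 to 29.0 ± 5.36 FPM (SD over 6 and 5 samples) (-0.98, adjusted p = 4.45e-06, edgeR). Psap, which encodes the precursor of the saposins, rose by 0.47 and 0.58, the largest rise in the list being that in NRK-49F. Gnptab, the other listed gene of that enzyme, rose in NRK-52E (0.42, adjusted p = 0.0405) and was not called in NRK-49F (-0.085, adjusted p = 0.775, edgeR). Igf2r, the large mannose 6-phosphate receptor, fell in NRK-52E from 118.9 to 41.4 FPM (-1.52, adjusted p = 4.75e-05) and had 647.7 and 664.3 FPM in NRK-49F (0.04, adjusted p = 0.945, edgeR). M6pr, the other mannose 6-phosphate receptor, was called in neither line (0.06 and 0.10). The median of the list was -0.06 and 0.01.

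Of 7 tested other lysosomal peptidases, 3 rose and 3 fell in NRK-52E and 2 rose and 1 fell in NRK-49F, with a median of -0.28 and 0.20. Cpq, a plasma and lysosomal carboxypeptidase, had the largest fall (-1.63 in NRK-52E, from 91.2 to 29.5 FPM) and Prcp, a prolyl carboxypeptidase, the largest rise (0.75 in NRK-49F, from 64.3 to 107.8 FPM), while it fell by 0.52 in NRK-52E. Of 3 tested genes listed as protease inhibitors, Cstb, which encodes cystatin B, fell in both lines (-0.46 and -0.27). Serpinb9 rose in NRK-52E (0.28) and fell in NRK-49F (-0.89), and Cst3, cystatin C, was called in neither. Inhibition of the cathepsins by these products was not measured.

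Of 8 tested genes of the TFEB family and its control, 4 rose and 2 fell in NRK-52E, and 0 rose and 1 fell in NRK-49F. Tfeb itself fell in both lines, from 62.6 to 38.8 FPM (-0.69, adjusted p = 6.91e-07) and from 28.7 to 21.3 FPM (-0.43, adjusted p = 0.00170, edgeR). Its relative Tfe3 rose in NRK-52E, from 49.18 to 64.15 FPM (0.38, adjusted p = 7.92e-05, edgeR). In NRK-49F, Tfe3 had 49.13 and 50.92 FPM (0.05, adjusted p = 0.664, edgeR). Fnip2, whose product acts with folliculin on the nutrient signalling that holds TFEB in the cytoplasm, had the largest rise (1.19 in NRK-52E, from 5.95 to 13.8 FPM). Mitf had the largest fitted fall, in NRK-52E, from a mean of 1.08 FPM to a mean under the level of 3 counts. Single samples at pH 6.0 had up to 7 counts, and no fold is given. Mitf was far lower in NRK-52E than in NRK-49F (17.5 FPM at pH 7.4). Of the other cathepsin genes, 10 of 11 were listed and 2 had sufficient counts. Ctso had 42.5 and 38.1 FPM in NRK-52E and 63.6 and 71.8 FPM in NRK-49F and was called in neither line, and 7 had 0 counts in all samples of each condition.

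Across the 23 samples, the genes whose log2 levels varied most alike were found by Pearson's coefficient, as a description over samples that fall into 2 lines and 2 pH values. The search covered tested genes with a symbol, leaving out the members and genes with placeholder names such as LOC or RGD. The nearest genes were Upp1 for Ctsz (0.999), Cdh13 for Ctsf (0.998), Cebpd for Ctsc (0.996), Hmga1 for Ctsl (0.994), Tcn2 for Ctsh (0.994), Cfl1 for Ctsa (0.993), Qars1 for Ctsd (0.993) and Plin2 for Ctsb (0.974). For Ctsk it was Zrsr1 (0.956) and for Ctss Riok3 (0.944). All points share the libraries and their scaling.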

How the data were processed

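RNA of 23 samples was counted by the authors. Per the labels and the paper's methods, poly(A) libraries were sequenced in read pairs, mapped with HISAT2 2.1.0 and counted on exons of Ensembl genes with featureCounts, multi-mapping reads included. The deposited values are raw counts. The processing notes name the build rn6, the paper's methods rn7, and the count table names none. The strand setting is not given in the sources used here. A further 13 columns without a sample label were not used.

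Grouping followed the labelled cell line and pH. Genes were filtered (filterByExpr, minimum count 10, minimum total 15), scaled by TMM and tested with edgeR 4.0.16 in R 4.3.3. FPM are edgeR's cpm of the TMM-scaled library. Standard errors are the absolute log2 fold change over the square root of F. The limit of detection was 3 counts. It and the 95% Poisson intervals cover counting error only. Likeness of genes was computed on log2(FPM + 0.5). On data simulated for the NRK-52E comparison (14584 genes), the test recovered 78 of 96 genes changed by a log2 of 1 and 100 of 104 changed by a log2 of 2, with 12 others called. No other genes were changed there, whereas 61.2% of tested genes were called in the data. The simulation therefore gives no rate of false calls for the data. DESeq2 1.42.0, 2 other scalings, other filters, the sample group as a block or alone, each line alone, single omissions and subtraction of the other line's signal were the alternatives. Figures were drawn with matplotlib 3.10.9.

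The members, gene lists and tests were chosen with earlier results of these data known, and motifs after sequences were read. Text names all members, in each list the largest called rise and fall (all called genes in lists of 3 or fewer), the most similar gene to each member, and markers. Gnptab, Igf2r, M6pr, Tfeb, Tfe3, Serpinb9, Cst3, Neu1 and Ctso were named beyond that rule after their values were seen.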

Additional observations from a re-analysis of the deposited data

Results flagged for a closer look

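In the NRK-52E samples at pH 7.4, replicate A035 stood above the other 5 by more than Dixon's limit for Ctsa (726.5 FPM, next 595.5), Ctsb (1327 FPM, next 1011), Ctsd (920.1 FPM, next 737.9) and Ctss (0.509 FPM, next 0.308), and replicate A021 did so for Ctsf (5.29 FPM, next 1.78). These are 5 of 40 groups of samples, of which Ctsc and Ctsz in NRK-52E at pH 6.0, with 0 counts throughout, could not be examined. Chance gives about 1 in 20 for independent groups, but these groups share samples, and most of the 5 are the same replicate, A035. A021 is also the sample with the largest share of NRK-49F signal (1.55%), and A035 the NRK-52E sample with the smallest TMM factor (0.98). The part of either in these levels was not tested.

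The acid response in NRK-52E differed from that in NRK-49F, by edgeR's test of the difference on the log2 scale, for Ctsb (-0.68), Ctsl (-0.56), Ctsh (-0.97) and Ctsk (1.79). The differences for Ctsf (-4.80) and Ctsz (-5.71) are fitted values that rest on a few counts in NRK-52E and are no measure of size. Between sample groups 3 and 1 of NRK-52E, the response differed for Ctsh (-1.48) and Ctsk (1.35).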

How the results depend on the processing

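Each result was recomputed under the alternatives that apply to it. Fitting only the conditions compared changed filter, scaling and fit together, and 1 alternative, added after seeing the data, left out A021 and A051 together. Of 1184 values of single members, 1134 kept direction and side of the threshold, 37 fell short of it, 11 newly passed and 2 turned direction. These were the difference of the acid responses for Ctsa (0.035 in sample groups 1 and 4 alone) and Ctsk between the lines at pH 7.4 (-0.021 without A022, and -0.021 to 0.253 over all single omissions), neither of them called. The number of cathepsins called in NRK-52E was 7, and 3 with at least 10 counts in every sample, 4 in sample group 3 alone and 4 with NRK-49F signal subtracted. The last left 3 of 6 in the test of the difference. The filter of 10 counts left 5 called between the lines at pH 7.4 and 6 at pH 6.0, since fewer members were tested. In NRK-49F, 4 were called in sample group 4 alone and 3 in group 6 alone, with 1201 and 2205 of all genes in place of 4270, and 3248 of all genes differed between the lines in groups 1 and 4 alone, with fewer samples. Leaving out single replicates gave 6 to 9 cathepsins in NRK-52E, 7 to 9 in NRK-49F and 5 to 6 in the test of the difference. The mean share of NRK-49F signal in NRK-52E at pH 6.0 was 0.0332% by the median of ratios. With the sample group as a replicate block, Ctsb in NRK-52E passed the threshold (0.22, adjusted p = 0.0466, edgeR) and no other call of a member changed among the acid responses and their difference. The block could not be fitted between the lines, whose sample groups differ. No paired analysis was possible because replicate codes are not shared between conditions. No value could be given for Ctsc, Ctsf and Ctsz in NRK-52E with the signal subtracted, nor for Ctsc in groups 3 and 6 alone. Counts of 0 to 14 limit Ctsc and Ctsz in NRK-52E.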
